A study of Mus musculus with 18 samples.

Results

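The AP-1 and immediate early genes described here are Fos, Fosb, Jun, Junb, Jund, Atf3, Egr1, Ier2, Ier3 and Klf6, taken by their symbols from a count table of mouse lung neutrophils. They are 10 of 40481 gene IDs in the table, each matched 1 row, and all 10 had enough reads to be among the 16575 genes tested. Immediate early genes are transcribed within minutes of a stimulus, without new protein synthesis, and their mRNAs decay fast. Fos and Jun proteins pair through leucine zippers to form AP-1, a transcription factor that MAP kinases activate and that binds DNA upstream of many inflammatory genes. Neutrophils carry abundant immediate early mRNA after they have been taken from tissue, and enzymatic digestion is itself known to induce these genes. Every group here went through the same collagenase digestion, so the levels include any such response in all groups, and its size was not tested.

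Libraries came from C57BL/6 mice, either wild-type (WT) or with a knockout of Cybb, the gene of the gp91phox subunit of the phagocyte NADPH oxidase, whose loss causes chronic granulomatous disease (CGD). Live CD45+ CD11b+ Ly6G+ cells were sorted from lung by CD101, a surface protein of mature neutrophils, into CD101-positive (CD101pos) and CD101-negative (CD101neg) cells. Each genotype had 3 groups of 3 libraries. Naive CD101pos cells came from untreated male mice aged 12 weeks, and zymosan CD101pos and CD101neg cells came from female mice aged 13 weeks that had received 20 µg of zymosan, a yeast cell wall particle, through the nose 24 hours before. No naive CD101neg group is among these samples. The effect of zymosan and those of sex and age cannot be told apart in any comparison of zymosan with naive cells. The labels do not say whether replicates are separate animals, and the p-values therefore cover only the spread among libraries, which may be technical.

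The 18 libraries held 33.7 to 67.9 M counts. Cybb itself was lower in CGD in each of the 3 genotype comparisons, at 45.1 ± 4.66 against 263 ± 10.1 CPM, the count scaled to a common library size, in zymosan CD101neg cells. The summed level of 8 neutrophil markers (Ly6g, S100a8, S100a9, Csf3r, Cxcr2, Itgam, Retnlg and Mmp9) lay between 18849.6 and 109896 CPM in the 18 libraries. Sums were 148 to 2733 CPM for 10 alveolar macrophage markers, 26.4 to 454 CPM for 7 B cell markers and 317 to 1892 CPM for 6 epithelial markers. In CGD zymosan CD101neg libraries Chil3 made up most of the alveolar macrophage sum. Unless stated otherwise, levels are CPM scaled by TMM factors, errors of levels are SD over 3 libraries, and differences are log2 fold changes ± SE from edgeR's quasi-likelihood test. A gene was called where its p, adjusted over all 16575 genes by the method of Benjamini and Hochberg, was under 0.05.

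The promoters of the 4 members that were called in at least 1 comparison are shown because they are the sequences from which the changed transcripts start. They are RefSeq sequences of mouse GRCm38.p6, from 250 bases before to 50 bases after the start. Of the 10 members 8 had an entry, and Egr1 and Ier2 had none. Capitals mark TGACG (the core of the cyclic AMP response element), the NF-kB site and the TATA box (TATAAA), on either strand.
Fos (chr12:85473640-85473939, plus strand): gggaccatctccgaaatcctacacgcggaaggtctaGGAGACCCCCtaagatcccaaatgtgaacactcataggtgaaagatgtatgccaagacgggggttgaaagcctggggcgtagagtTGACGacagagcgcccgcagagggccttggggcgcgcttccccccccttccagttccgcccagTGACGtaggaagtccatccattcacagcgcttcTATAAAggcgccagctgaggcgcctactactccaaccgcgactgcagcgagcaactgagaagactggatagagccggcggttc
Fosb (chr7:19309996-19310295, minus strand): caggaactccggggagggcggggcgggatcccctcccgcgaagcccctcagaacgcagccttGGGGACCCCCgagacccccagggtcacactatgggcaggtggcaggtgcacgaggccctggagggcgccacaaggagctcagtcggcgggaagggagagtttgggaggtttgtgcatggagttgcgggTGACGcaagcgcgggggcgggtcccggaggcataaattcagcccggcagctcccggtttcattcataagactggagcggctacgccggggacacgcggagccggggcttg
Atf3 (chr1:191183284-191183583, minus strand): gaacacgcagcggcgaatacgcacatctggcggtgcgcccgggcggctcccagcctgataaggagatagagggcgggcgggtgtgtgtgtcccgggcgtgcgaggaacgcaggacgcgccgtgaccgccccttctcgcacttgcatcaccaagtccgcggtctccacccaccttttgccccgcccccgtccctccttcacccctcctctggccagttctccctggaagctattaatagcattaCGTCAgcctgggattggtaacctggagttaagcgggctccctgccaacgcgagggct
Ier3 (chr17:35821463-35821762, plus strand): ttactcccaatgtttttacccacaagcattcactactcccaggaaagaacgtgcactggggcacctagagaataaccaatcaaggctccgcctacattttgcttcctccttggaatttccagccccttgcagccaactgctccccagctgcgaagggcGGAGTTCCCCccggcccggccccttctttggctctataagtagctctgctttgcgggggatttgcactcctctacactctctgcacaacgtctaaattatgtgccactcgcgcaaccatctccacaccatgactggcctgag

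TGACG, which is also part of the full element TGACGTCA, was found in 4 of the 8 member promoters (Fos, Fosb, Junb and Atf3) and in 20.8% of all 32851 promoter windows of this length. In Fos it began 129 and 66 bases before the start, in Fosb 60 and in Atf3 7 bases before. The NF-kB site was present in 3 of 8 (Fos, Fosb and Ier3), against 4.51% of all windows, and in Ier3 it began 92 bases before the start. TATAAA was present in 2 of 8 (Fos and Junb), against 13.6%. In Fos it began 33 bases before the start, while in Junb it covered bases 1 to 6 after the start. The full element TGACGTCA (1.79% of all windows), the AP-1 site TGANTCA (7.81%), the CArG box of serum response factor (1.63%) and the EGR site GCGTGGGCG (0.612%) were in 0 of the 8 windows. These matches describe letters in a short window and do not show that a factor binds there. Sites outside the windows, and the promoters of Egr1 and Ier2, were not examined.

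All 10 members were expressed in every library. Divided by the length of the merged exons, Fos had the highest mean level of the 10 in both naive groups and Ier3 in all 4 zymosan groups, where Fos was second. In WT zymosan CD101pos cells these 2 levels per kb, 1092 ± 222 for Ier3 and 1049 ± 261 for Fos, differed by less than their spread. Group means of Fos ran from 463 to 1210.3 CPM per kb and those of Ier3 from 233 to 2099.6. Junb (349 to 419.8 CPM per kb), Ier2 (251 to 402), Klf6 (199 to 381), Egr1 (152 to 205) and Atf3 (86.4 to 253) followed, with an order that differed between groups, and in WT naive cells Ier3 lay under Ier2, Junb and Klf6. Fosb (25.3 to 93.2 CPM per kb), Jun (22.1 to 55.3) and Jund (25.5 to 47.6) were the lowest 3 on this scale in each group. By CPM not divided by length, Fos ranked between 43 and 174 from the top of the 16575 genes tested in all 6 groups.

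**Figure D1:**
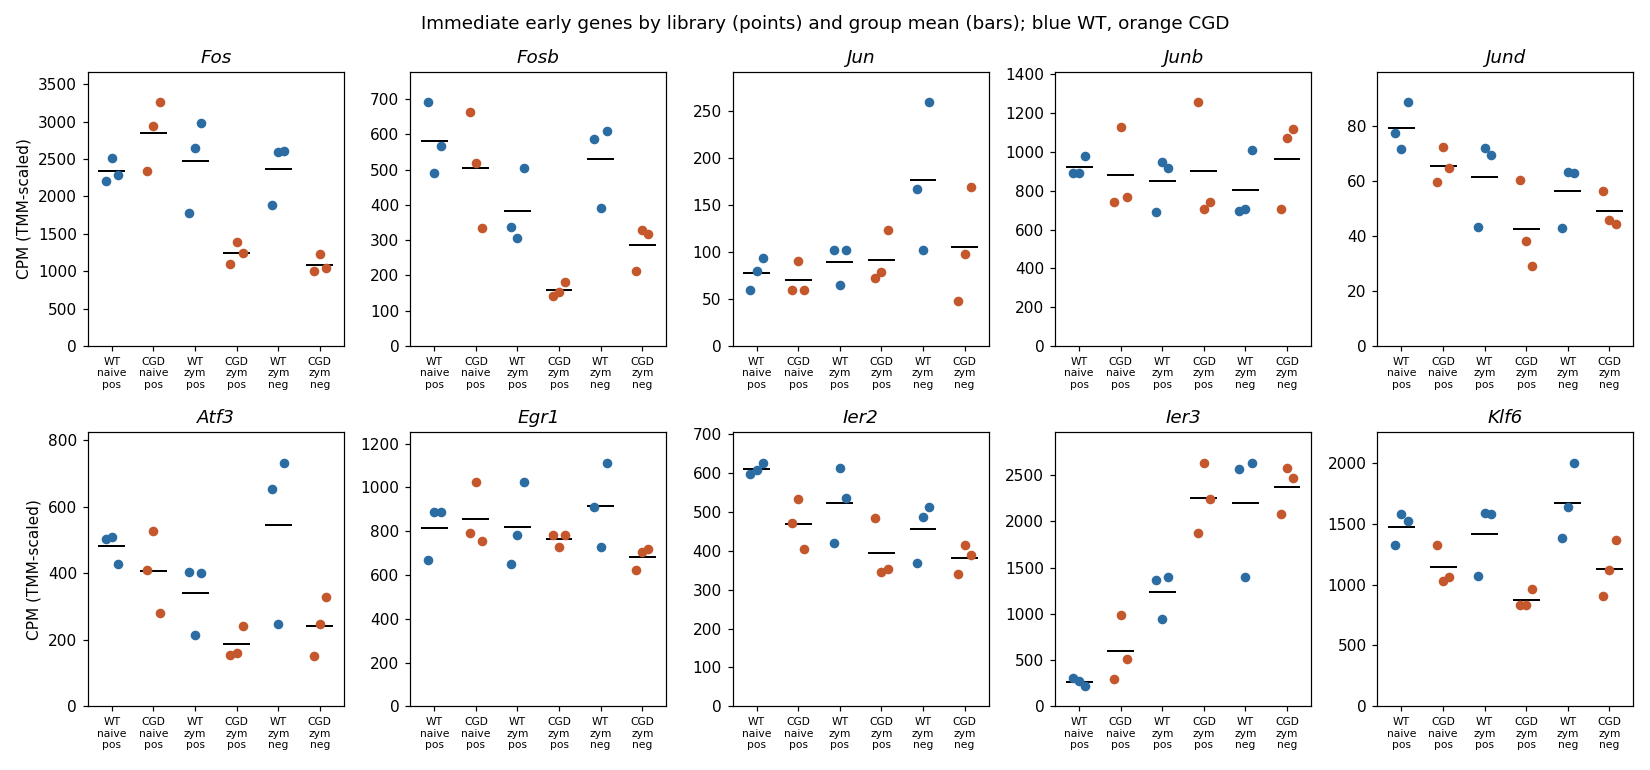
Level of each of the 10 members (CPM, linear axis from 0) in the 18 libraries by group, with points for libraries and bars for means of 3. The 6 CGD zymosan libraries are the lowest 6 of 18 for Fos, and 11 of the 12 zymosan libraries are among the highest 12 for Ier3.

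Fos, the prototype of its family, was lower in CGD than in WT cells after zymosan in both subsets. In zymosan CD101neg cells it stood at 1882, 2598 and 2612 CPM in WT and 1005, 1225 and 1039 CPM in CGD libraries. In zymosan CD101pos cells it stood at 1784, 2643 and 2975 CPM in WT and 1097, 1386 and 1241 CPM in CGD libraries. The groups did not overlap in either subset, and the 6 CGD zymosan libraries held the lowest 6 Fos levels of all 18. The same 6 libraries also had the lowest 6 shares of mitochondrially encoded counts, at 0.316 to 0.396%, against 0.425 to 0.581% in WT zymosan and 0.510 to 0.764% in naive libraries, and the part of this in the levels of Fos and Fosb was not tested. The naive libraries stood at 2205, 2515 and 2287 CPM in WT and 2335, 2948 and 3258 CPM in CGD, and these groups overlapped. Fos fell by 1.12 ± 0.22 on the log2 scale in CGD against WT CD101neg cells (2.17-fold lower, adjusted p = 0.00247) and by 0.99 ± 0.21 in CD101pos cells (1.99-fold lower, adjusted p = 0.0106). In naive cells the log2 difference was 0.29 ± 0.21, with an interval of -0.16 to 0.73 (adjusted p = 0.886). The call in CD101neg cells held with each library left out in turn. The call in CD101pos cells was lost without WT replicate 3 (-0.83, adjusted p = 0.0704) and with only the 6 libraries compared in the fit (adjusted p = 0.067). In bulk libraries, fewer cells that express a gene and less of its RNA per cell cannot be told apart.

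Fosb, which pairs with Jun proteins as Fos does, was also lower in CGD after zymosan. Its levels in CD101neg cells were 588, 392 and 609 CPM in WT and 213, 328 and 319 CPM in CGD. In CD101pos cells they were 338, 306 and 505 CPM in WT and 141, 152 and 181 CPM in CGD. All 3 CGD libraries lay under all 3 WT libraries in both subsets, and the CGD CD101pos libraries were the lowest 3 of 18. Naive libraries stood at 691, 489 and 566 CPM in WT and 662, 519 and 336 CPM in CGD, with overlap. The log2 difference was -0.89 ± 0.27 (adjusted p = 0.0358) in CD101neg cells, -1.28 ± 0.27 (adjusted p = 0.0092) in CD101pos cells and -0.20 ± 0.27 (adjusted p = 0.961) in naive cells. The call in CD101neg cells was lost without CGD replicate 1 (adjusted p = 0.106), 2 (0.0655) or 3 (0.0619), without WT replicate 1 (0.104) or 3 (0.117), and with only the 6 libraries compared (0.0944). The call in CD101pos cells was lost without CGD replicate 2 (adjusted p = 0.0541) or WT replicate 3 (0.0648).

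The Jun family, the partners of Fos proteins, had no call by genotype. Jun stood at 167, 102 and 259.7 CPM in WT and 48.2, 97.9 and 169.9 CPM in CGD zymosan CD101neg libraries, which overlap. Its log2 difference by genotype was -0.74 ± 0.38 (adjusted p = 0.217) in CD101neg, 0.03 ± 0.38 (adjusted p = 0.98) in CD101pos and -0.15 ± 0.38 (adjusted p = 0.981) in naive cells. Junb, which can oppose Jun, kept group means within 803 to 966 CPM, and its genotype differences were 0.27 ± 0.26 (adjusted p = 0.532), 0.08 ± 0.26 (adjusted p = 0.916) and -0.07 ± 0.26 (adjusted p = 0.989) in the same order. Jund, the family member that is least dependent on a stimulus, had group means of 42.6 to 79.4 CPM and differences of -0.20 ± 0.25 (adjusted p = 0.643), -0.53 ± 0.25 (adjusted p = 0.263) and -0.27 ± 0.25 (adjusted p = 0.915). Without CGD CD101pos replicate 1 the Jund difference in CD101pos cells was -0.90 (adjusted p = 0.0458), a call. Each of these 3 genes overlaps a gene on the opposite strand in GENCODE M21 (Jun with Junos by 232 bases, Junb with Prdx2 by 173 and Jund with Gm11175 by 877 of 1668 exon bases). No label states whether reads were counted by strand, and without that the reads of such pairs cannot be told apart.

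Atf3, a stress-induced factor of the ATF and CREB family that pairs with Jun proteins and restrains inflammatory transcription, was lower in CGD CD101neg cells by the test. Its levels there were 652, 247 and 733 CPM in WT and 151, 247 and 329 CPM in CGD libraries. The groups overlapped, since WT replicate 2 lay under 2 of the 3 CGD libraries. The log2 difference was -1.17 ± 0.37 (adjusted p = 0.0427) in CD101neg cells. In CD101pos cells the levels were 403, 216 and 401 CPM in WT and 155, 161 and 242.6 CPM in CGD, with overlap and a difference of -0.87 ± 0.36 (adjusted p = 0.203). In naive cells the difference was -0.25 ± 0.36 (adjusted p = 0.963). The call in CD101neg cells was lost without WT replicate 1 (adjusted p = 0.132) or 3 (0.166), without CGD replicate 1 (0.127) or 2 (0.111), without the low-count filter (0.113) and with only the 6 libraries compared (0.138).

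Klf6, a zinc finger factor that promotes inflammatory gene expression in myeloid cells, had lower estimates in CGD after zymosan that did not pass the test. It stood at 1387, 1634 and 2003 CPM in WT and 910.3, 1123 and 1363 CPM in CGD CD101neg libraries. In CD101pos cells it stood at 1072, 1591 and 1579 CPM in WT and 830.3, 836 and 961 CPM in CGD libraries. All 3 CGD libraries lay under all 3 WT libraries in both subsets, with differences of -0.57 ± 0.21 (adjusted p = 0.0854) and -0.69 ± 0.21 (adjusted p = 0.0662). Such a lack of overlap, in either direction, was found for 30% of all genes in CD101neg and 21.9% in CD101pos cells. The CD101pos difference was a call under 2 of 12 alternatives, without WT replicate 1 (-0.85, adjusted p = 0.0243) and by DESeq2 (-0.71, adjusted p = 0.0174). Egr1, a zinc finger factor induced through MAP kinases and serum response factor, had CGD CD101neg libraries (623, 705 and 719 CPM) under the WT ones (911, 727 and 1114 CPM) and a difference of -0.43 ± 0.21 (adjusted p = 0.191). In CD101pos and naive cells the Egr1 difference was -0.10 ± 0.21 (adjusted p = 0.871) and 0.08 ± 0.21 (adjusted p = 0.981). Ier2, a small nuclear protein encoded by an early response gene, had group means of 381 to 611 CPM and differences of -0.26 ± 0.20 (adjusted p = 0.413), -0.41 ± 0.20 (adjusted p = 0.289) and -0.38 ± 0.20 (adjusted p = 0.764) in CD101neg, CD101pos and naive cells.

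Ier3, an early response gene whose product acts on cell survival and restrains NF-kB, had no call by genotype. In zymosan CD101pos cells it stood at 1361, 946 and 1398 CPM in WT and 1875, 2630.3 and 2242 CPM in CGD libraries. All 3 CGD libraries lay above all 3 WT libraries, yet the difference of 0.86 ± 0.34 did not pass the test (adjusted p = 0.162). In this comparison 21.9% of all genes had no overlap, in either direction. In CD101neg cells the levels were 2567, 1399 and 2635 CPM in WT and 2081, 2574 and 2469 CPM in CGD, with overlap. The difference was 0.11 ± 0.33 (adjusted p = 0.863). With library size alone as the scale it was -0.40, where the median of all genes was -0.57. Relative to that median Ier3 differed by 0.17. In naive cells they were 307, 268 and 217 CPM in WT and 293, 987 and 506 CPM in CGD, and the highest value was that of CGD replicate 2. The naive difference of 1.17 ± 0.34 had an unadjusted p of 0.0026 and an adjusted p of 0.35. Without CGD naive replicate 1 it was 1.50 (adjusted p = 0.0409), a call.

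Counted over the 10 members, 0 were called higher and 3 lower (Fos, Fosb and Atf3) in CGD against WT CD101neg cells, where 6.67% of all genes tested were called higher and 6.24% lower. In CD101pos cells 0 were called higher and 2 lower (Fos and Fosb), against 2.77% and 2.53% of all genes. In naive cells 0 of the 10 were called by edgeR's quasi-likelihood test and 0 by DESeq2, with 1 (Ier3) at an unadjusted p under 0.05, and 0.127% of all genes were called. The median log2 difference of the members was -0.50 in CD101neg, -0.47 in CD101pos and -0.17 in naive cells, beside -0.08, 0.02 and -0.00 over all genes tested. The 3 libraries of one genotype lay above all 3 of the other for 4 members in CD101neg cells (Fos, Fosb, Egr1 and Klf6) and 4 in CD101pos cells (Fos, Fosb, Ier3 and Klf6), where 30% and 21.9% of all genes did so. In naive cells 1 member (Ier2, lower in CGD) did so, against 14.7% of all genes.

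**Figure D2:**
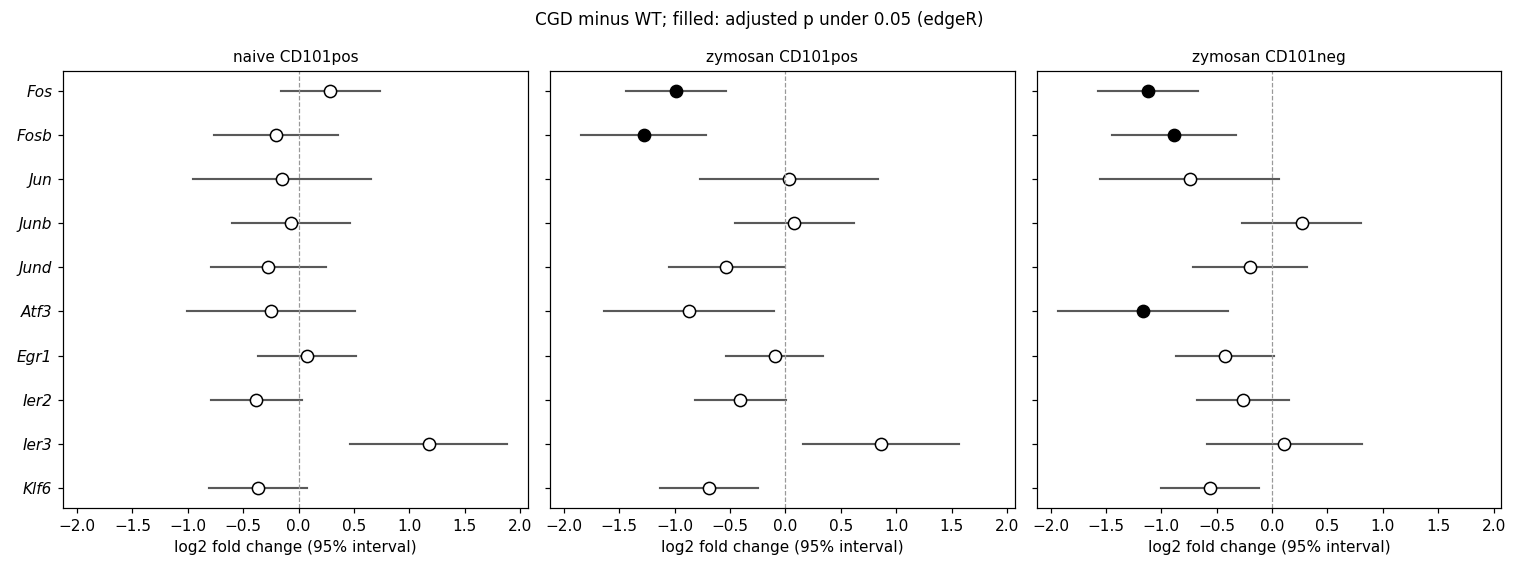
Log2 fold change of CGD against WT with its 95% interval for each member in naive CD101pos cells and, after zymosan, in CD101pos and CD101neg cells (x axes, log2 scale); filled points passed an adjusted p of 0.05. Fos and Fosb pass in both zymosan subsets, Atf3 in CD101neg cells, and 0 members pass in naive cells.

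TMM scaling bears on the comparison of CD101neg cells. With library size alone as the scale, the median of all genes shifted to -0.57 there and 7 members were called lower, with Jund, Egr1, Ier2 and Klf6 added, while 21.6% of all genes were called lower and 2.49% higher. Relative to that median the 4 added members differed by -0.46 (Klf6), -0.35 (Egr1), -0.16 (Ier2) and -0.10 (Jund). The libraries of CGD CD101neg cells had TMM factors of 0.702 to 0.809, and replicate 1 held the lowest level of its group for 9 of the 10 members, while WT CD101neg replicate 3 held the highest of its group for 9 of 10.

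Zymosan against naive CD101pos cells was compared within each genotype. These comparisons share the zymosan libraries with the genotype comparison above, so the values below are not independent of it. Ier3 rose in both genotypes. The 3 naive and 3 zymosan CD101pos libraries did not overlap in either genotype, with log2 differences of 2.23 ± 0.35 in WT (4.68-fold, adjusted p = 0.00098) and 1.92 ± 0.34 in CGD (3.78-fold, adjusted p = 0.00109). Both calls held with each library left out in turn.

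Fos and Fosb fell after zymosan in CGD. In CGD cells Fos went from 2847 ± 469.7 CPM in naive to 1242 ± 144 CPM in zymosan libraries (n = 3 each), a log2 difference of -1.20 ± 0.22 (adjusted p = 0.00112). Fosb went from 506 ± 164 to 158 ± 20.9 CPM, a difference of -1.68 ± 0.27 (adjusted p = 0.000449). Both held with each library left out. In WT cells the differences were 0.08 ± 0.21 (adjusted p = 0.903) for Fos and -0.60 ± 0.27 (adjusted p = 0.253) for Fosb, and neither passed. The test of the change in CGD minus that in WT gave -1.28 ± 0.30 for Fos (unadjusted p = 0.000483, adjusted p = 0.0852) and -1.08 ± 0.38 for Fosb (adjusted p = 0.299), so a difference between the genotypes was not called. For Fos it was a call by DESeq2 (-1.31, adjusted p = 0.00379), without the low-count filter (-1.32, adjusted p = 0.0205) and without WT zymosan CD101pos replicate 1 (-1.46, adjusted p = 0.0395). Under 15 of 18 alternatives Fos was not called in it.

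Atf3 after zymosan lay just outside the threshold in CGD. Its naive CGD libraries stood at 409, 526 and 282 CPM and its zymosan CGD CD101pos libraries at 155, 161 and 242.6 CPM, without overlap. The log2 difference was -1.12 ± 0.37 with an adjusted p of 0.05004. It passed by DESeq2 (adjusted p = 0.019), with DESeq2's size factors in edgeR (0.0474), with library size only (0.0433), with only the groups compared (0.0235) and without CGD naive replicate 3 (0.0355). Under 6 of 12 alternatives Atf3 was not called, with an adjusted p of up to 0.176. In WT the naive libraries stood at 505, 511 and 429 CPM, also above the zymosan ones without overlap, and the difference was -0.50 ± 0.36 (adjusted p = 0.529). Klf6 went from 1142 ± 163 to 876 ± 73.7 CPM in CGD, a difference of -0.38 ± 0.21 (adjusted p = 0.26), and from 1475 ± 134 to 1414 ± 297 CPM in WT, a difference of -0.06 ± 0.21 (adjusted p = 0.926).

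The remaining 5 members (Jun, Junb, Jund, Egr1 and Ier2) had no call after zymosan in either genotype. Their log2 differences ran from -0.36 to 0.21 in WT and from -0.63 to 0.38 in CGD. Jund in CGD was at -0.63 ± 0.25 (adjusted p = 0.108), and without CGD zymosan CD101pos replicate 1 at -0.98 (adjusted p = 0.0143), a call. Over the 10 members, 1 was called higher and 0 lower in WT, beside 2.92% and 0.875% of all genes, and 1 higher and 2 lower in CGD, beside 7.13% and 5.71%. Without overlap between naive and zymosan libraries were 2 members in WT (Atf3 and Ier3) and 5 in CGD (Fos, Fosb, Atf3, Ier3 and Klf6), against 23.7% and 32% of all genes. Median differences of the members were -0.09 in WT and -0.32 in CGD, beside -0.03 and 0.00 over all genes. The change in CGD minus that in WT was called for 0 of the 10 members by edgeR, with 2 (Fos and Fosb) at an unadjusted p under 0.05, 1 (Fos) by DESeq2, and 0.32% of all genes called.

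**Figure D3:**
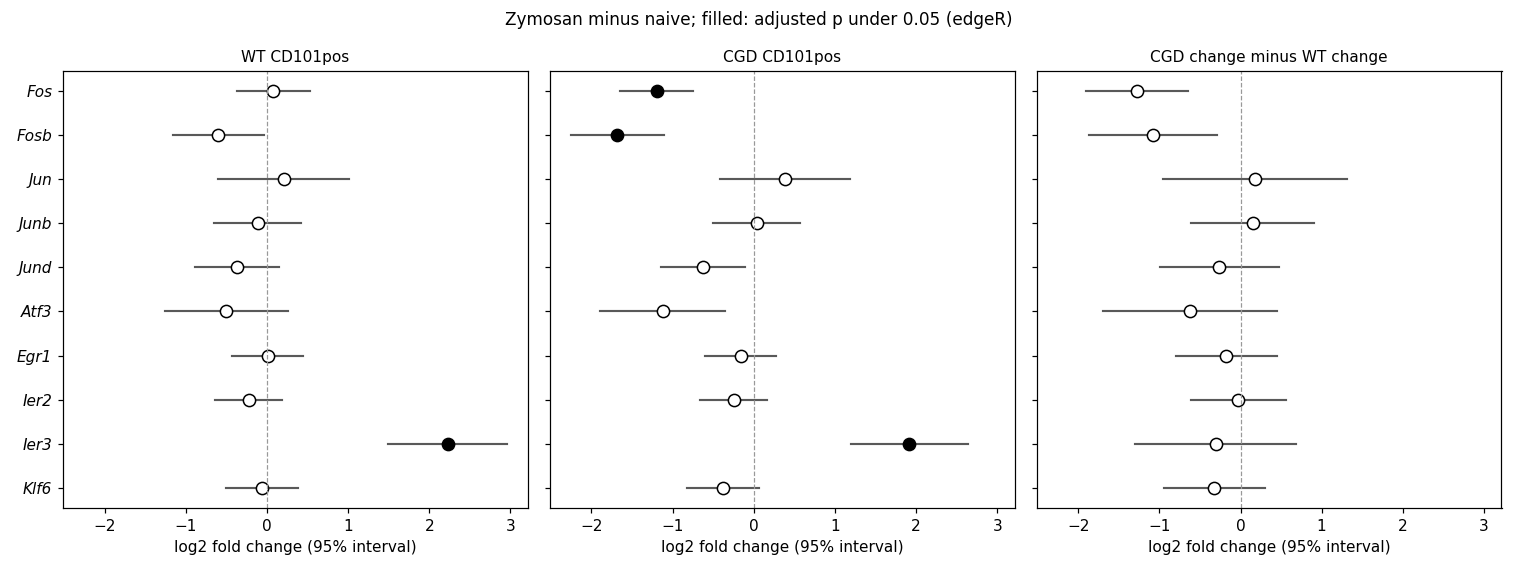
Log2 fold change of zymosan against naive CD101pos cells with its 95% interval for each member in WT and CGD, and the change in CGD minus that in WT (x axes, log2 scale); filled points passed an adjusted p of 0.05. Ier3 passes in both genotypes, Fos and Fosb pass in CGD, and 0 members pass in the third panel.

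CD101neg cells were compared with CD101pos cells of the same genotype after zymosan. In WT the fit without a replicate block called 0 of the 10 members by edgeR and 0 by DESeq2, with 2 (Jun and Ier3) at an unadjusted p under 0.05, and 0.44% of all genes were called. Libraries of the same number deviated together in WT. A fit with the replicate number within genotype as a block used the zymosan libraries alone and tested 15791 genes. The block is therefore not the only difference from the fit above. With it 4 members rose in CD101neg cells, beside 5.05% of all genes called higher and 5.98% lower. These were Ier3 (0.79, adjusted p = 0.000643), Jun (0.90, adjusted p = 0.00352), Atf3 (0.58, adjusted p = 0.0215) and Fosb (0.47, adjusted p = 0.0437). Jun stood at 102, 64.8 and 103 CPM in CD101pos and 167, 102 and 259.7 CPM in CD101neg WT libraries of replicates 1 to 3. For each of these 4 genes, and for Klf6, which was not called, the CD101neg library was higher in 3 of 3 pairs. Fos was higher in 1 of 3 pairs, with a difference of -0.06 ± 0.21 (adjusted p = 0.963) without the block.

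In CGD 0 members were called between the subsets, with 1 (Fosb) at an unadjusted p under 0.05, beside 3.27% of all genes called higher and 4.08% lower. Fosb was higher in CD101neg cells without overlap, at 141, 152 and 181 CPM in CD101pos and 213, 328 and 319 CPM in CD101neg libraries, and its difference of 0.86 ± 0.27 missed the threshold (adjusted p = 0.0571). It passed by DESeq2 (adjusted p = 0.0166), with DESeq2's size factors in edgeR (0.0492), without the low-count filter (0.0331), with only the groups compared (0.0427) and without CGD CD101neg replicate 1 (0.0434). Under 6 of 12 alternatives Fosb was not called, with an adjusted p of up to 0.32. Ier3, the member with the lowest blocked p in WT, differed by 0.08 ± 0.33 (adjusted p = 0.918) in CGD. The libraries of the subsets did not overlap for 1 member in WT (Ier3) and 2 in CGD (Fosb and Egr1), against 12% and 28.9% of all genes. The subset difference of CGD minus that of WT was called for 0 of the 10 members, with 0 at an unadjusted p under 0.05 and 0 by DESeq2, and 0.851% of all genes were called. Its estimates were -0.78 ± 0.54 (adjusted p = 0.538) for Jun and -0.75 ± 0.47 (adjusted p = 0.482) for Ier3. With the replicate number as a block within genotype 2 members were called lower in it, Jun (-0.86, adjusted p = 0.0329) and Ier3 (-0.73, adjusted p = 0.0127), beside 8.16% of all genes lower and 5.96% higher, although same-numbered libraries did not all deviate together in CGD.

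**Figure D4:**
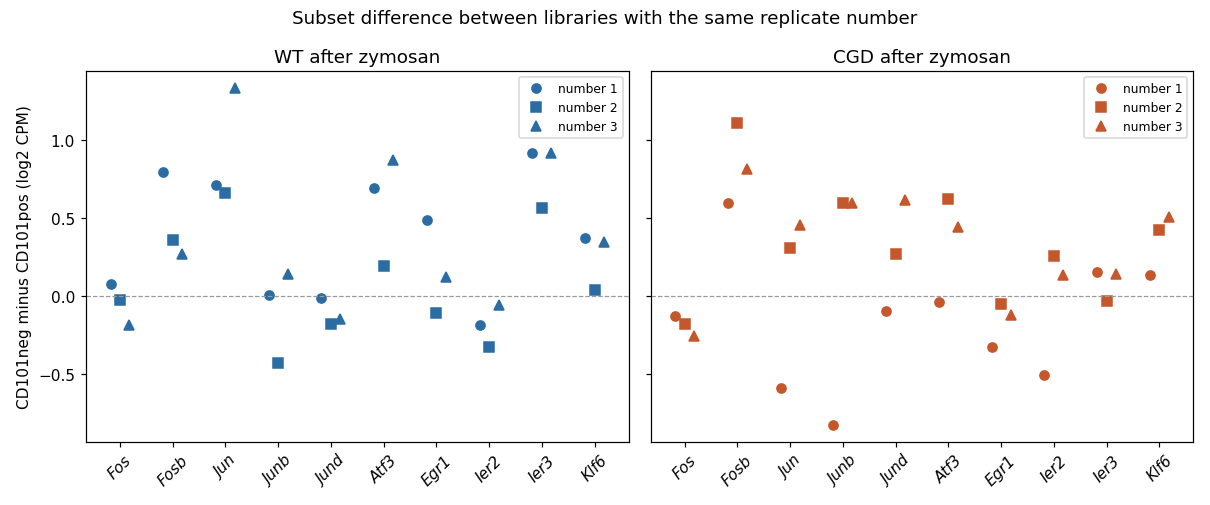
Difference between the CD101neg and the CD101pos library of the same replicate number (log2 CPM, y axis) for each member in WT and CGD zymosan cells; points are numbers 1 to 3. Fosb and Klf6 lie above 0 at 3 of 3 numbers in both genotypes, and Ier3, Jun and Atf3 do so in WT.

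Related genes were counted as whole lists, chosen with earlier results of these data known. Of 15 further AP-1 family genes tested, 1 rose and 2 fell in CGD against WT CD101neg cells, beside 6.67% and 6.24% of all genes, which is the background for each list in that comparison. In CD101pos cells it was 2.77% and 2.53%, and after zymosan 2.92% and 0.875% in WT and 7.13% and 5.71% in CGD. Between the subsets it was 0.41% and 0.0302% in WT and 3.27% and 4.08% in CGD. The calls in CD101neg cells included Batf2, a partner of Jun proteins in myeloid cells, which rose (3.56 ± 0.65, adjusted p = 0.00163), and Maf, a macrophage factor present here at under 5 CPM, which fell (-1.50 ± 0.30, adjusted p = 0.00294). In CD101pos and naive cells 0 of the 15 were called by genotype. After zymosan 3 rose in CGD and 1 fell, with Nfe2l2, the antioxidant regulator NRF2, at 1059 ± 202 against 701 ± 30.1 CPM (0.59 ± 0.17, adjusted p = 0.027), Batf at 0.75 ± 0.20, adjusted p = 0.017, Batf2 with an adjusted p of 0.0368 and Atf7 at -0.73 ± 0.22, adjusted p = 0.0337. In WT 0 were called after zymosan. Between the subsets Mafg, a small Maf protein and partner of NRF2, rose in CD101neg cells of both genotypes (1.35 ± 0.23, adjusted p = 0.0143 in WT and 1.11 ± 0.23, adjusted p = 0.00942 in CGD). Other calls in CGD included Atf2, higher in CD101neg cells, and Maf, lower.

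Of 37 further immediate early genes tested, 5 rose and 1 fell in CGD CD101neg cells, 1 rose and 2 fell in CGD CD101pos cells, and 0 were called in naive cells. In CD101neg cells the largest rises were those of the orphan nuclear receptors Nr4a3 (95.4 ± 6.77 against 40.8 ± 13.6 CPM, 1.23 ± 0.34, adjusted p = 0.0226) and Nr4a2 (1.13 ± 0.34, adjusted p = 0.0331). Dusp5, a nuclear phosphatase of ERK, also rose (0.83 ± 0.21, adjusted p = 0.0159), and so did Zfp36l1 (0.91 ± 0.26, adjusted p = 0.0289) and Per1 (0.54 ± 0.17, adjusted p = 0.0413), the direction opposite to that of Fos. Zfp36l2, which binds AU-rich mRNAs, fell in CD101neg (-0.82 ± 0.19, adjusted p = 0.00792) and CD101pos cells (-0.91 ± 0.19, adjusted p = 0.00837). In CD101pos cells Dusp6, a cytoplasmic phosphatase of ERK, fell (-0.74 ± 0.20, adjusted p = 0.0382) and Myc rose (1.49 ± 0.29, adjusted p = 0.00533). The list genes were tested with TMM factors only, and under library size alone the median of all genes lay at -0.57 in the CD101neg comparison. Median differences of the 37 genes were 0.08 in CD101neg and -0.00 in CD101pos cells, beside -0.08 and 0.02 over all genes.

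After zymosan 2 of the 37 rose and 0 fell in WT, and 5 rose and 5 fell in CGD. Nfkbia, the NF-kB inhibitor, was at 7131 ± 1259 against 3594 ± 315 CPM in WT (0.99 ± 0.24, adjusted p = 0.0249) and 8396 ± 743 against 3624 ± 859 CPM in CGD (1.21 ± 0.24, adjusted p = 0.00246), zymosan against naive. Zfp36l1 also rose in both (1.39 ± 0.27, adjusted p = 0.00488 in WT and 1.52 ± 0.27, adjusted p = 0.000928 in CGD). The other genes that rose in CGD were Nfkbiz, Tnfaip3 and Myc, and those that fell were Zfp36l2 (-1.17 ± 0.19, adjusted p = 0.000446), Dusp6 (-0.76 ± 0.20, adjusted p = 0.018), Dusp4, Dusp5 and Per1. The change of Zfp36l2 in CGD minus that in WT was called (-1.26 ± 0.27, adjusted p = 0.0497), alone among the 37 genes. Between the subsets 0 of the 37 were called in WT, and 2 rose in CGD CD101neg cells (Nr4a2 and Dusp5).

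Of 22 kinases and transcription factors that act upstream of the immediate early genes, 7 rose and 1 fell in CGD CD101neg cells. Crem, which encodes a cyclic AMP response factor and its repressor ICER, was the largest at 320.2 ± 9.98 against 71.8 ± 9.84 CPM (2.16 ± 0.23, adjusted p = 1.44e-05). Kinases that rose included Map3k8, the kinase TPL2 (0.92 ± 0.19, adjusted p = 0.00334), Map2k3, which activates p38 (0.81 ± 0.18, adjusted p = 0.00536), and Map2k1, which activates ERK (0.88 ± 0.21, adjusted p = 0.00971). Mapk8, Map2k4 and Mapkapk2 rose as well, and Creb1 fell (-0.51 ± 0.16, adjusted p = 0.038). In CGD CD101pos cells 3 rose (Crem, 0.96 ± 0.23, adjusted p = 0.018, Map2k4, 0.80 ± 0.21, adjusted p = 0.0335, and Map3k8, 0.69 ± 0.19, adjusted p = 0.0345) and 4 fell (Mrtfa, a cofactor of serum response factor, Creb1, Mapk3 and Mapk14). After zymosan Map3k8 rose in both genotypes (1.08 ± 0.19, adjusted p = 0.00228 in WT and 1.82 ± 0.19, adjusted p = 5.01e-06 in CGD). In WT it was the only call of the 22, while in CGD Map2k4 also rose and Srf, Mrtfa, Mapk3 and Mapk14 fell. Between the subsets 0 were called in WT, and Mapk8 and Map2k1 rose in CGD CD101neg cells. In naive cells 0 were called by genotype.

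Heat shock genes, which respond to protein damage and to handling of cells, were counted as a further list. Of 13 tested, 1 rose in CGD CD101neg cells (Hspa5, the chaperone BiP of the endoplasmic reticulum, 0.72 ± 0.19, adjusted p = 0.0165) and 2 fell (Hspb1, -1.46 ± 0.43, adjusted p = 0.0306, and Hsph1, -2.03 ± 0.61, adjusted p = 0.0359), both at under 10 CPM, beside 6.67% of all genes higher and 6.24% lower. In CGD Hspa5 also rose after zymosan (0.81 ± 0.19, adjusted p = 0.00728). The list had 0 calls in WT after zymosan, between the subsets of either genotype, and by genotype in CD101pos and naive cells.

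Markers of other cells moved with the same comparisons. In CGD against WT CD101neg cells, 1 of 10 alveolar macrophage markers was higher (Chil3) and 5 lower, 7 of 10 monocyte and interstitial macrophage markers were lower, and 6 of 7 B cell markers were lower. In CD101pos cells 5 of the 10 alveolar macrophage markers were higher, 3 of the 10 monocyte and interstitial macrophage markers were higher and 1 lower, and 5 of 7 B cell markers were lower. Summed alveolar macrophage markers were 414 to 659 CPM in WT and 1563 to 2586 CPM in CGD CD101neg libraries, and 368 to 654 and 2272 to 2733 CPM in CD101pos libraries. Chil3 made up most of these CGD sums, at 1934 ± 558 CPM in CD101neg cells, while the list's median log2 difference there was -1.03. The higher CGD sum in CD101neg cells thus rests on Chil3, the 1 marker called higher, and not on the list as a whole. Whether Chil3 RNA came from other cells or from the sorted neutrophils was not tested. Summed B cell markers were 116 to 145 CPM in WT and 26.4 to 43.1 CPM in CGD CD101neg libraries, and 149 to 175 and 42.8 to 63.2 CPM in CD101pos libraries. Against naive cells, 7 (WT) and 6 (CGD) of the alveolar macrophage markers were higher after zymosan, and 6 of 7 B cell markers lower in both genotypes. In CGD CD101neg against CD101pos cells 7 of the 10 alveolar macrophage markers were lower, beside 4.08% of all genes. So were 5 of the 10 monocyte and interstitial macrophage markers. In the subset difference of CGD minus that of WT 3 and 5 markers of these lists were lower, beside 0.67% of all genes. In WT 0 of either list were called between the subsets, beside 0.44% of all genes. Monocyte and interstitial macrophage markers summed to 705 to 1028 CPM over the 18 libraries. The B cell marker Pax5 was at 0 in all 3 CGD CD101neg libraries, the eosinophil marker Prg2 in all 3 WT naive libraries and Il5ra in all 3 CGD CD101pos libraries, and no other marker was at 0 throughout a group. Summed T and NK cell markers (8 genes) stayed under 24 CPM and summed eosinophil markers (5 genes) under 27 CPM in every library, with 2 of each list lower in CGD CD101neg cells. Of the 8 neutrophil markers 0 were called in any genotype or subset comparison, and 1 was higher after zymosan in WT. Summed epithelial (6 genes), endothelial (6) and fibroblast (6) markers ranged from 317 to 1892, 103 to 289 and 23.0 to 90.4 CPM, with 0 called by genotype in CD101pos cells and 1 (fibroblast, lower) in CD101neg cells. Epithelial sums were 1696 to 1892 CPM in WT and 604 to 1724 CPM in CGD naive libraries. In CD101pos libraries after zymosan they were 399 to 1389 and 1001 to 1230 CPM, and in CD101neg libraries 490 to 1059 and 317 to 583 CPM. Between the CGD subsets 1 epithelial and 1 fibroblast marker were lower. After zymosan 1 epithelial marker was higher in CGD, and 1 fibroblast marker was lower in each genotype. The part of these cells in the levels of the 10 members was not tested.

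For each member the 3 most similar profiles were found by the root mean square difference of centred log2 CPM over the 18 libraries, among 5870 named genes with at least 10 CPM in at least 1 group. For Fos these included Mia2 (0.20) and Ndst1 (0.23), beside an SD of 0.58 for Fos itself. Fosb was closest to Hsdl1 (0.31), with Sh2d3c (0.34) also among its 3, and had an SD of 0.73. Atf3 was closest to Mtdh (0.25), with Ppm1h (0.38) also among its 3, and had an SD of 0.70. Klf6 was closest to Mtmr12 (0.15), Jak1 (0.18) and Dcaf12 (0.18), with an SD of 0.37. Ier3 was closest to Hbegf (0.37), an EGF receptor ligand, Nek6 (0.37) and Mrpl52 (0.40), with an SD of 1.29. The closest genes were Hyou1 (0.28) for Jun, Arrdc4 (0.21) for Junb, Midn (0.15) for Jund, Rbm27 (0.16) for Egr1 and Rer1 (0.13) for Ier2. The SD of these members was 0.62 for Jun, 0.28 for Junb, 0.42 for Jund, 0.24 for Egr1 and 0.30 for Ier2. For Junb and Egr1 the distance was thus not far under the gene's own spread. The 18 libraries share groups and scaling, and these distances describe the profiles only.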

How the data were processed

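RNA sequencing counts per gene were used as the authors deposited them. Per the submitters' processing notes, the tools included STAR 2.5.1a, Subread and featureCounts 1.4.6-p5, while the build, the annotation and whether counting used strand were not stated there. Per the labels' protocols, total RNA libraries were made with a SMARTer kit. Of 40757 lines 276 were exact repeats of an ID and its counts, and each ID was used once. Libraries held 33.7 to 67.9 M counts, which leaves the spread between libraries as the main error of the members.

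The members and lists were chosen with earlier results of these data known. All 10 members are named, with up to 4 genes of the lowest p in each related list as values and further called genes by name, and a few genes that this rule would name are not reported here. Groups follow the titles and characteristics in the labels. Counts were tested with edgeR 4.0.16 (robust quasi-likelihood, R 4.3.3, limma 3.58.1) in 1 fit of 18 libraries with TMM factors, after filterByExpr by group, with 12 residual degrees of freedom and a common biological coefficient of variation of 33.0%. The SE is the size of a log2 difference divided by the square root of F, and log2 CPM have a prior count of 2. There were 7 pairwise comparisons and 2 interactions. The method was checked on data simulated from its own fit, which cannot show how well that fit describes these libraries.

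Alternatives were DESeq2 1.42.0, its size factors in edgeR, scaling by library size only, a fit of the compared groups alone, no filter on low counts, the replicate number as a block, and each library left out. The block within genotype was fitted to the zymosan libraries alone, with 15791 genes tested and fewer residual degrees of freedom than the main fit. Replicate numbers in the titles were checked for pairing by correlating deviations from group means across genes. Same-numbered WT CD101pos and CD101neg libraries correlated at 0.49, 0.42 and 0.31, so the WT subset comparison is also given with the block. In CGD the values were 0.24, 0.02 and 0.26, and between genotypes or treatments they ran from -0.21 to 0.13. Gene lengths are merged exons of GENCODE M21, and promoter sequences are from RefSeq.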

Additional observations from a re-analysis of the deposited data

How the results depend on the processing

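Over the alternatives 1200 single-gene values were computed, of which 1150 stayed on the same side of the threshold, 17 lost the call, 33 gained it and 0 reversed a call. Of those 1150, 64 differed in sign from the reported value with no call in either. With library size only as the scale, 7 members were called lower by genotype in CD101neg cells, beside 21.6% of all genes. After zymosan 1 member (Jund) was called lower in WT and 5 in CGD on this scale, beside 3.72% and 12.2% of all genes. That scale put the median of all genes at -0.57 in CD101neg cells by genotype, at -0.34 between the CGD subsets, at 0.13 between the WT subsets, at -0.33 and -0.24 after zymosan in WT and CGD, and at -0.45 in the interaction with subset. It called 413 of all genes higher and 3572 lower by genotype in CD101neg cells, against 1105 and 1034 with TMM factors. With only the groups compared in the fit, which leaves 4 residual degrees of freedom, 1 member (Fos) was called lower by genotype in CD101neg cells, 1 (Fosb) lower in CD101pos cells and 1 (Fosb) higher in CGD CD101neg against CD101pos cells. Of all genes, 415 of 14563 were called lower, 232 of 14832 lower and 559 of 14699 higher in these comparisons. DESeq2 called 3 members lower by genotype in CD101pos cells, Klf6 beside Fos and Fosb, 3 lower after zymosan in CGD and 1 (Fos) in the interaction with zymosan. Of all genes it called 712 of 16249 lower by genotype in CD101pos cells and 1271 of 16571 lower after zymosan in CGD. Fosb was the 1 member called higher between the CGD subsets by DESeq2, with its size factors in edgeR and without the low-count filter. Of all genes these settings called 1059 of 14965, 615 of 16575 and 368 of 28513 higher there. Without that filter 1 (Fos) was called in the interaction with zymosan and 2 lower by genotype in CD101neg cells. Of all 28513 genes in that fit, 60 and 1181 were called lower. The cause of these differences between settings was not tested. Over all genes DESeq2 called 93 higher and 17 lower by genotype in naive cells (20 and 1 by edgeR), 233 and 96 between the WT subsets (68 and 5), 198 and 391 in the interaction with subset (30 and 111) and 118 and 143 in that with zymosan (27 and 26). The fit of the compared groups alone called 647 and 415 of all genes by genotype in CD101neg cells and 0 between the WT subsets.

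With the replicate number as a block within genotype, 4 members were called higher in WT CD101neg cells, 1 (Fosb, 0.82, adjusted p = 0.000507) in CGD CD101neg cells, beside 11.7% of all genes higher, and 2 were called lower in the interaction with subset (Jun, -0.86, adjusted p = 0.0329, and Ier3, -0.73, adjusted p = 0.0127), beside 8.16% of all genes lower. As an additive term over all 18 libraries the block ended the Atf3 call by genotype in CD101neg cells (adjusted p = 0.0567) and made Atf3 a call after zymosan in CGD (adjusted p = 0.0459), and it changed no other call of a member.

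With each library left out in turn, members called lower by genotype ranged from 1 to 3 in CD101neg and from 0 to 3 in CD101pos cells. Members called higher ranged from 0 to 1 in naive cells by genotype and from 0 to 1 between the CGD subsets, and those called lower from 2 to 3 after zymosan in CGD and from 0 to 1 in the interaction with zymosan. Called higher after zymosan was 1 member, Ier3, in each genotype under every alternative. Spread between 3 libraries, not depth, limits the tests, since the members' mean levels were all above 40 CPM.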
